A study of Mus musculus with 6 samples.

Results

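The glycolytic enzymes described here are 10 genes chosen by symbol, of the 44788 symbols in the count table: *Hk1*, *Hk2*, *Gpi1*, *Pfkp*, *Aldoa*, *Gapdh*, *Pgk1*, *Eno1*, *Pkm* and *Ldha*. All 10 were found, and all 10 passed the filter on low counts. The study compared bulk RNA of tail tendon, in 3 libraries from wild-type (WT) and 3 from *Mkx*-/- mice of the C57BL/6 strain, to find genes that differ in tendons that later form bone. The labels give an age of 3 weeks for every mouse, the study's text gives a different age, and no other allele or treatment is named in either group. *Mkx* encodes Mohawk, a homeobox factor of tendon cells. The knockout is described only as *Mkx*-/-, with no Cre driver named, and whether a library is 1 mouse or a pool is not given in the sources used here. P-values therefore measure the spread between these 6 libraries, which may be technical in part. WT replicate 3 was not a repeat of the other WT libraries, as it alone held a Y-linked transcript (*Ddx3y*, below).

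Glycolysis turns glucose into pyruvate in the cytosol and yields ATP without oxygen. Hexokinases (*Hk1*, *Hk2*) and phosphofructokinase (*Pfkp*) commit glucose to the pathway, glucose-6-phosphate isomerase (*Gpi1*) and aldolase A (*Aldoa*) prepare and split the sugar, *Gapdh* and phosphoglycerate kinase (*Pgk1*) carry out the first oxidation and ATP yield, and enolase (*Eno1*) and pyruvate kinase (*Pkm*) complete the chain. Lactate dehydrogenase A (*Ldha*) converts pyruvate to lactate, which keeps glycolysis running when pyruvate does not enter mitochondria. Tendon is sparsely supplied with blood and is known to use little oxygen.

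Libraries held 10835070 to 14160301 counts. *Mkx* was at 135 to 144 normalized CPM (counts per 1000000 of the TMM-scaled library total) in WT and at 38.9 to 56.8 CPM in *Mkx*-/- libraries. The tendon markers tenomodulin (*Tnmd*) and fibromodulin (*Fmod*) were abundant in all 6 libraries, at 886 to 1292 CPM and 15622 to 19825 CPM. Of all 11 tendon markers, *Thbs4* was higher and *Mkx* itself lower, and their summed level, largely collagen, was 382820 to 525621 CPM in WT and 246267 to 341242 CPM in *Mkx*-/- libraries. Of 33 skeletal muscle markers tested, 9 were higher in *Mkx*-/- tendons and none lower (edgeR, adjusted p under 0.05), and the summed level of all 34 was 126 to 540 CPM in WT and 758 to 3731 CPM in *Mkx*-/- libraries. A Y-linked transcript, *Ddx3y*, was present in WT replicate 3, at 24.1 CPM, and at 0 in the other 5 libraries. The X-linked *Xist* was at 0.0801 CPM in WT replicate 3 and at 110 to 147 CPM in the other 5. By these transcripts WT held libraries of both sexes, while no *Mkx*-/- library held the Y-linked one. Sex is thus partly confounded with genotype, and its part in the levels was not tested. Of other marker lists, 3 of 9 cartilage and 2 of 14 endothelial genes were higher, 2 of 13 macrophage and leukocyte genes were lower, and 0 of 9 proliferation genes passed.

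The sequence of these genes bears on how they could be counted, because several have processed copies in the genome. In 7 of the 10 members, at least part of the coding sequence was found again, base for base, at another place in mm9 when windows of 50 bases were searched, and in 3 (*Hk1*, *Hk2* and *Pfkp*) none was. Every 100-base coding window of *Gapdh* and of *Pgk1* recurred elsewhere. The share was 69.2% for *Eno1*, 8.68% for *Gpi1*, 6.55% for *Pkm*, 2.23% for *Ldha* and 0% for *Aldoa*. The coding windows of 60 bases that follow, in mm9 and 5′ to 3′, show the range from no exact copy to many.
*Hk1*, chr10:61824926-61824985, minus strand, 0 exact copies elsewhere: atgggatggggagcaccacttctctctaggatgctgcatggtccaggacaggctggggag
*Pgk1*, chrX:103395547-103395606, plus strand, 3 exact copies elsewhere: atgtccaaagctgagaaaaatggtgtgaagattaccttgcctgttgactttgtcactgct
*Gapdh*, chr6:125112914-125112973, minus strand, 67 exact copies elsewhere: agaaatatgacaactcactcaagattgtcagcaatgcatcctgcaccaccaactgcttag

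*Gpi1* has 1 annotated copy, *Gm1840* on chromosome 8, and the pair is shown because a read over the stretch below can be told apart by a single base. The capital marks the difference, C8G, counted from 1 at the 5′ end of the window.
*Gpi1*, chr7:35004064-35004123, minus strand: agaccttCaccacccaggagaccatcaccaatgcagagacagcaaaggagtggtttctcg
*Gm1840*, chr8:5639966-5640025, plus strand: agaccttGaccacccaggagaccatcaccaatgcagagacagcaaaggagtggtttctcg

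Few counts stood on the members with a fully repeated coding sequence. *Gapdh*, which is abundant in nearly all tissues, had only 5, 10 and 19 counts in WT replicates 1, 2 and 3, and 19, 28 and 18 counts in *Mkx*-/- replicates 1, 2 and 3. The 90 annotated *Gapdh* copies present in the table together held 97 to 163 counts a library, or 88.6% of all counts on *Gapdh* and its copies. The copies identical over all 1002 coding bases, *Gm10359*, *Gm12671* and *Gm7336*, held 0 or 1 count a library. Other copies match over shorter stretches, such as *Gm5069* (longest match 101 bases), which held 4 to 19 counts. Which of the counts on copies came from *Gapdh* mRNA was not tested. *Pgk1* had 51 to 85 counts a library, and its 2 annotated copies together had 144 to 216, or 69.5%. *Eno1* had 417 to 813 counts against 112 to 237 on its copies in the table. *Gpi1* had 1250 to 2102 against 682 to 970 on *Gm1840*. For *Aldoa*, *Pkm* and *Ldha*, the copies held 1.58%, 0.236% and 1.79% of the counts. Read length and the treatment of reads that match several places are not given in the sources used here, so the low levels of *Gapdh* and *Pgk1* cannot be read as levels of their mRNA.

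**Figure D1:**
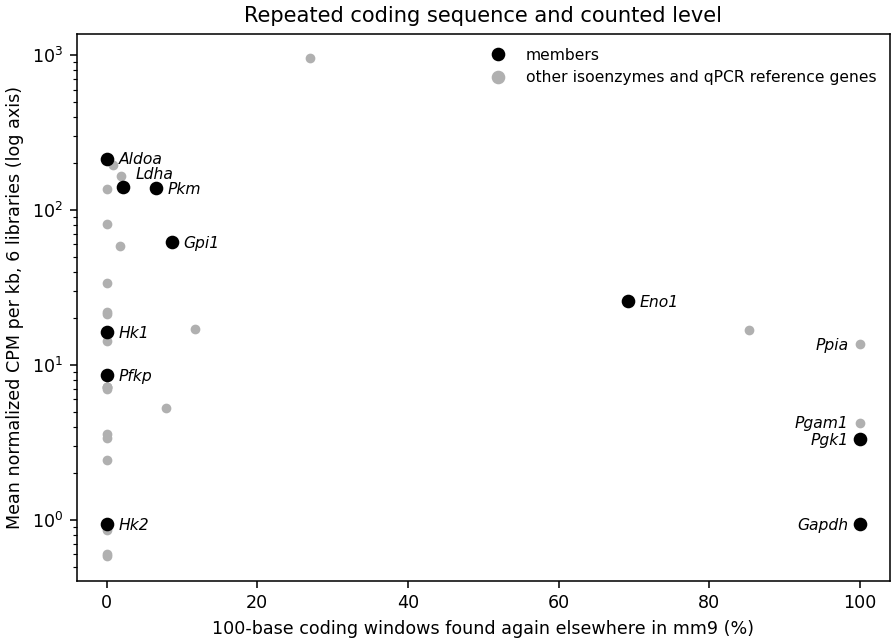
Share of 100-base coding windows that recur exactly elsewhere in mm9 (horizontal axis, %) against the mean normalized CPM per kb of transcript over 6 libraries (vertical log axis), for the members (black) and for other isoenzymes and genes used as qPCR references (grey). *Gapdh*, *Pgk1* and *Pgam1* lie at 100% with low levels, while *Ppia*, also at 100%, lies above *Pfkp* at 0%. *Hk2* is low with 0% repeated.

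Levels of the members were compared per length, as CPM per kb of the transcript with the longest coding sequence. Counts on copies are left out of these levels. Copies held 33.1% of the counts for *Gpi1* and 20.1% for *Eno1*, beside the larger shares for *Gapdh* and *Pgk1* given above. In WT tendon *Aldoa* was highest, at 195 ± 33.7 CPM per kb (SD, n = 3), followed by *Ldha* at 138 ± 47.1 and *Pkm* at 138 ± 18.9 CPM per kb. The ranges of *Aldoa* and *Ldha* overlapped, as did those of *Ldha* and *Pkm*. *Gpi1* stood at 56.9 ± 6.72, *Eno1* at 23.0 ± 7.25 and *Hk1* at 16.6 ± 2.35 CPM per kb, and the last pair overlapped. *Pfkp* was at 8.60 ± 1.80, *Pgk1* at 3.68 ± 0.727, *Hk2* at 0.815 ± 0.400 and *Gapdh* at 0.680 ± 0.397 CPM per kb, and only *Hk2* and *Gapdh* overlapped among these neighbours. Of the hexokinases, *Hk1* exceeded *Hk2* by 22.2 times per kb in WT and 16.04 times in *Mkx*-/- libraries (geometric means).

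To ask whether loss of *Mkx* was accompanied by a change in these enzymes, a quasi-likelihood fit in edgeR over 14550 genes was used. None of the 10 members was higher or lower at an adjusted p under 0.05, by edgeR or by DESeq2, and none had an unadjusted p under 0.05 by either tool. Over all genes tested, 5.44% passed, 3.18% higher and 2.26% lower in *Mkx*-/- tendons. In no member were the 3 WT and 3 *Mkx*-/- libraries fully apart, against 28.2% of all genes tested. The median log2 fold change of the members was 0.16, beside -0.0037 for all genes tested. In bulk RNA, fewer cells of a type and less RNA per cell cannot be told apart.

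At the entry of the pathway, *Hk1*, the hexokinase of most tissues, was at 68.4, 65.1 and 51.8 CPM in WT tendon (in the order of the replicate numbers, as in all series of values given here) and at 52.6, 64.6 and 60.7 CPM in *Mkx*-/- libraries. The highest and the lowest library were both WT. Its log2 fold change was -0.06 (SE 0.15, 95% interval 0.763- to 1.21-fold, adjusted p = 0.859, edgeR). *Hk2*, the insulin- and hypoxia-responsive hexokinase, was at 2.05, 5.10 and 6.33 CPM in WT and at 6.41, 3.09 and 8.01 CPM in *Mkx*-/- libraries. One library of each genotype was low, and the log2 fold change of 0.37 (SE 0.45) had an interval of 0.633- to 2.65-fold (adjusted p = 0.679, edgeR).

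*Gpi1*, which converts glucose-6-phosphate to fructose-6-phosphate, was at 125, 123 and 100.1 CPM in WT and at 148, 148 and 120 CPM in *Mkx*-/- libraries. The lowest *Mkx*-/- library lay below the highest pair of WT libraries, and the log2 fold change was 0.26 (SE 0.14, 0.955- to 1.503-fold, adjusted p = 0.328, edgeR). *Pfkp*, the platelet-type phosphofructokinase, was at 43.3, 35.1 and 28.4 CPM in WT and at 31.8, 39.4 and 35.0 CPM in *Mkx*-/- libraries. All 3 *Mkx*-/- values fell inside the WT range. Its log2 fold change was -0.0094 (SE 0.17, 0.757- to 1.30-fold, adjusted p = 0.985, edgeR).

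*Aldoa*, which splits fructose-1,6-bisphosphate, was at 247, 351 and 310 CPM in WT and at 431, 327 and 332 CPM in *Mkx*-/- libraries. The highest value was in *Mkx*-/- replicate 1, and the other pair lay within the WT range (log2 fold change 0.26, SE 0.18, 0.907- to 1.59-fold, adjusted p = 0.428, edgeR). *Gapdh*, at its low counts, was at 0.394, 0.981 and 1.52 CPM in WT and at 1.74, 1.97 and 1.43 CPM in *Mkx*-/- libraries. Its log2 fold change of 0.82 (SE 0.45) had a wide interval, 0.861- to 3.64-fold (adjusted p = 0.330, edgeR). *Pgk1*, which is X-linked, was at 5.83, 8.24 and 6.09 CPM in WT and at 6.05, 3.58 and 6.74 CPM in *Mkx*-/- libraries, with the lowest value in *Mkx*-/- replicate 2 (log2 fold change -0.30, SE 0.27, 0.529- to 1.24-fold, adjusted p = 0.559, edgeR).

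With the counts of the annotated copies added to each member, a choice made after the data were seen, *Gapdh* was at 9.53, 11.1 and 9.29 CPM in WT and at 14.01, 12.7 and 14.3 CPM in *Mkx*-/- libraries, and *Pgk1* was at 18.4, 23.7 and 19.7 CPM and at 19.5, 13.7 and 23.9 CPM. The groups of *Gapdh* no longer overlapped, but its log2 fold change of 0.46 did not pass (adjusted p = 0.101, edgeR). *Pgk1* moved to -0.11 (adjusted p = 0.799, edgeR). As the treatment of reads that match several places is not given, these sums cannot be read as mRNA levels either.

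In the lower part of the pathway, *Eno1*, the ubiquitous enolase, was at 32.9, 62.1 and 45.1 CPM in WT and at 62.5, 46.4 and 64.4 CPM in *Mkx*-/- libraries. The WT libraries alone spanned nearly the whole range (log2 fold change 0.31, SE 0.23, 0.856- to 1.79-fold, adjusted p = 0.482, edgeR). *Pkm*, whose row does not separate the M1 and M2 isoforms of pyruvate kinase, was at 258, 335 and 326 CPM in WT and at 353, 275 and 311 CPM in *Mkx*-/- libraries (log2 fold change 0.03, SE 0.16, 0.799- to 1.31-fold, adjusted p = 0.932, edgeR). *Ldha* was at 149, 281 and 303 CPM in WT and at 281, 178 and 305 CPM in *Mkx*-/- libraries. The spread within each genotype was far larger than the difference between them (log2 fold change 0.06, SE 0.29, 0.658- to 1.65-fold, adjusted p = 0.932, edgeR). Over the 10 members, the 95% interval lay within 2-fold either way for 8, the exceptions being *Hk2* and *Gapdh*.

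**Figure D2:**
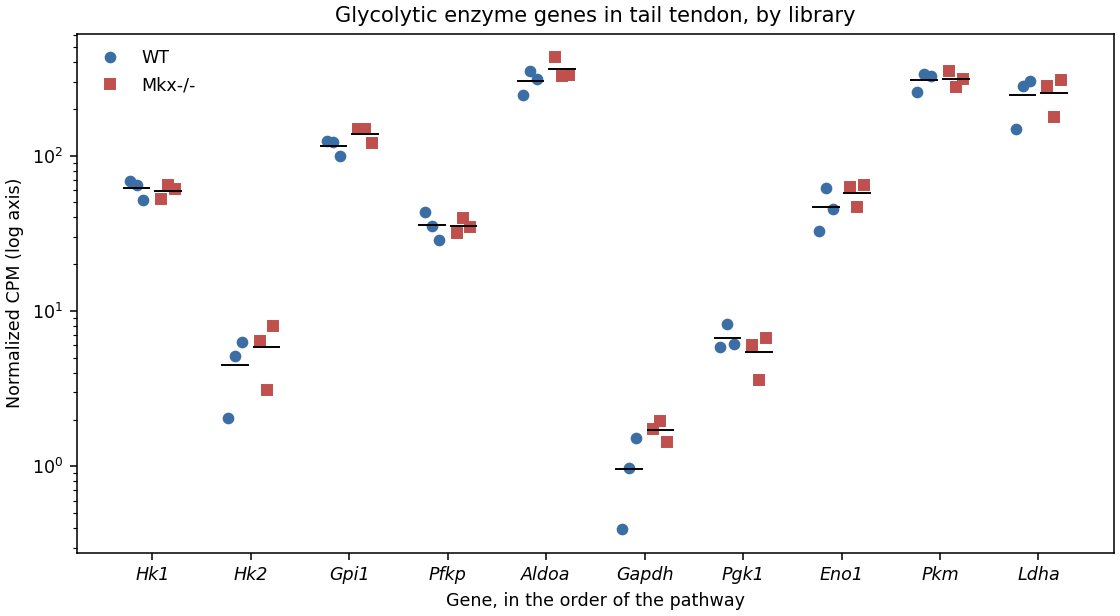
Normalized CPM (vertical log axis) of the 10 genes in the order of the pathway, in 3 WT libraries (blue circles) and 3 *Mkx*-/- libraries (red squares). Points of a group run from replicate 1 to 3 from left to right, and black bars are means. The groups overlap for every gene.

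The sum of the 10 members was 931, 1265 and 1178 CPM in WT and 1374, 1087 and 1245 CPM in *Mkx*-/- libraries, with means of 1125 ± 173 and 1235 ± 144 CPM (SD, n = 3). These groups overlapped. As a plain share of all counts, without TMM scaling, the sum was 0.0934%, 0.109% and 0.104% in WT and 0.138%, 0.122% and 0.142% in *Mkx*-/- libraries, and these groups did not overlap. A large part of each library was collagen, with *Col1a2* at 12.8% to 24.5% and *Col1a1* at 10.9% to 19.5% of counts. Scaling by library size alone moved the median log2 fold change of all genes tested to 0.25. *Aldoa* then had a log2 fold change of 0.52 and was the only member to pass (adjusted p = 0.0497, edgeR). Under TMM, RLE and upper-quartile scaling no member passed.

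In most members the libraries of a genotype differed by more than the genotypes did. The pooled SD between libraries of a genotype on the log2(CPM + 0.5) scale exceeded the fitted log2 fold change in 7 of 10 members, against 6576 of 14550 genes tested. The median pooled SD was 0.30 for the members, 0.22 for all genes tested and 0.19 for the 10295 genes whose mean level was 5 CPM or more. *Hk2*, *Ldha*, *Gapdh*, *Eno1* and *Pgk1* had the widest spread, at 0.70, 0.49, 0.44, 0.37 and 0.36. *Gpi1*, *Hk1* and *Pkm* had the narrowest, at 0.17, 0.18 and 0.19.

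This spread followed the same libraries in many members. WT replicate 1 and *Mkx*-/- replicate 2 were together the lowest of their groups for 6 members, *Hk2*, *Aldoa*, *Pgk1*, *Eno1*, *Pkm* and *Ldha*, and together the highest for *Hk1* and *Pfkp*. Over all genes tested, this pair of libraries was together lowest for 19.7% and together highest for 18.8%, the largest shares among the 9 possible pairs. *Ldha* lay 0.65 and 0.48 log2 units below its genotype mean in these libraries, and *Hk2* 0.85 and 0.73 below. *Tpi1*, the triose phosphate isomerase between aldolase and *Gapdh*, was likewise at 62.9 CPM in WT replicate 1 and 77.6 CPM in *Mkx*-/- replicate 2, below the 93.0 to 116 CPM of the other 4 libraries. WT replicate 1 also had the highest summed red blood cell markers, at 455 CPM against 52.1 to 104.2 CPM elsewhere, and the highest *Pfkfb3*, at 105 CPM against 12.1 to 34.6 CPM. The part of these differences in the members' levels was not tested.

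**Figure D3:**
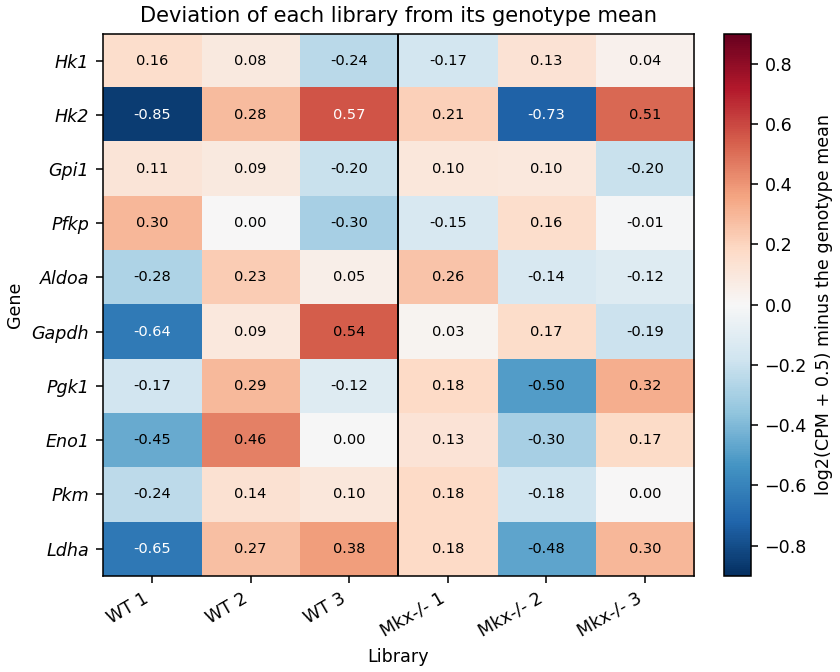
Deviation of each library from its genotype mean on the log2(CPM + 0.5) scale, for the 10 genes (rows) in 6 libraries (columns); blue is below and red above the mean. WT replicate 1 and *Mkx*-/- replicate 2 are blue together for *Hk2*, *Aldoa*, *Pgk1*, *Eno1*, *Pkm* and *Ldha*, with values down to -0.85 in *Hk2*, and red together for *Hk1*, *Gpi1* and *Pfkp*.

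By their profile over the 6 libraries, the genes most like the mean of the standardized members, among 10286 with at least 5 CPM, were *Ndufa8* (Pearson r = 0.99), *Gm9844* (0.99), *Ccdc97* (0.99), *Bmp2* (0.98) and *Fam102a* (0.98). These are the highest of many values over 6 points that share library depth and genotype, and are given as a description.

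Promoter sequences are shown for *Ldha* and *Hk2*, which had the widest spread between libraries among members without a fully repeated coding sequence. The letters ACGTG and GCGTG, the core bound by hypoxia-inducible factors, were searched on both strands of RefSeq promoter windows, 250 bases before to 50 bases after a start, in GRCm38.p6. A CACGTG counts once on each strand. Of the 17 windows of the members, 13 (76.5%) held at least 1 match, against 43.8% of 32851 windows. By gene, 9 of 10 members had a window with one, against 46.7% of 27025 genes, but the members had more windows per gene. CACGTG was in 1 of the 17 windows (5.88%), against 7.15% of all windows. *Gpi1* was the member with no match in its window. In the 120 bases before the start, capitals mark the matches.
*Ldha*, chr7:46845684-46845803, plus strand, 3 matches: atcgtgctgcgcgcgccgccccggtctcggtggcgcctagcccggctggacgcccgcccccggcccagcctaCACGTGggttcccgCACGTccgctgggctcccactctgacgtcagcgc
*Hk2*, chr6:82774455-82774574, minus strand, 1 match: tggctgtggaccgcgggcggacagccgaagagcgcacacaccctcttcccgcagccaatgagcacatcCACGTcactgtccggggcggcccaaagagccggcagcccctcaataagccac

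Factor binding was not measured here, and the part of these matches in the spread between libraries was not tested. Matches were also held by *Hk1* and *Pfkp*, which were together highest in WT replicate 1 and *Mkx*-/- replicate 2. *Hif1a* itself was at 35.1, 42.2 and 62.5 CPM in WT and at 59.4, 36.4 and 62.7 CPM in *Mkx*-/- libraries, with the lowest values again in WT replicate 1 and *Mkx*-/- replicate 2. The 19 genes of hypoxia sensing and HIF targets outside glycolysis include sensors, HIF subunits and targets. This pair of libraries was together lowest for 5 of them, *Hif1a*, *Vegfa*, *Car9*, *Ankrd37* and *P4ha1*, and together highest for 6, *Hif3a*, *Vhl*, *Bnip3*, *Ddit4*, *Adm* and *Mxi1*. Over all genes tested, the pair was together lowest for 19.7% and together highest for 18.8%. *Bnip3* was at 83.9, 23.6 and 23.3 CPM in WT and at 19.97, 31.5 and 15.5 CPM in *Mkx*-/- libraries.

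While the members did not pass, 3 other genes of glycolytic steps did, 1 of them, *Pgam2*, of a step that no member carries out. Of 19 other isoenzymes and steps, 12 were tested, and 3 were higher and 0 lower in *Mkx*-/- tendons (edgeR, adjusted p under 0.05). The testis forms *Gapdhs* and *Pgk2* had 0 counts in every library. *Pgam2*, the muscle phosphoglycerate mutase, was at 1.34, 0.196 and 1.04 CPM in WT and at 20.9, 7.94 and 4.91 CPM in *Mkx*-/- libraries. Its log2 fold change was 3.63 (SE 0.67, adjusted p = 0.0220, edgeR), and the adjusted p was 0.0827 without WT replicate 2 and 0.0885 without WT replicate 3. *Eno3*, the muscle enolase, was at 21.1, 19.0 and 20.4 CPM in WT and at 66.9, 36.2 and 35.8 CPM in *Mkx*-/- libraries. It rose by 1.19 on the log2 scale (SE 0.24, adjusted p = 0.0313, edgeR), with adjusted p of 0.117 without WT replicate 2 and 0.112 without WT replicate 3. *Eno2*, known as the neuronal enolase, was at 7.09, 6.18 and 4.73 CPM in WT and at 13.4, 12.6 and 13.001 CPM in *Mkx*-/- libraries, a tight group well apart from WT (log2 fold change 1.11, SE 0.18, adjusted p = 0.0138, edgeR, and 0.0589 without WT replicate 2).

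Other isoenzymes lay near the threshold. *Pfkm*, the muscle phosphofructokinase, was at 49.5 to 57.3 CPM in WT and 64.8 to 79.1 CPM in *Mkx*-/- libraries (log2 fold change 0.41, adjusted p = 0.0954, edgeR). *Ldhb*, the heart-type lactate dehydrogenase that favours pyruvate formation, was at 15.2 to 18.6 CPM in WT and 19.97 to 32.6 CPM in *Mkx*-/- libraries (log2 fold change 0.74, adjusted p = 0.0698, edgeR). For both genes the genotypes were apart without passing in edgeR, while *Ldhb* passed in DESeq2 (adjusted p = 0.0214) and in 4 of 17 alternatives in all. *Pfkl*, the liver form, had a log2 fold change of -0.49 (adjusted p = 0.210), and *Tpi1* and *Pgam1* had 0.17 and 0.08 (adjusted p = 0.710 and 0.847, edgeR). *Pgam1*, like *Gapdh*, had every 100-base coding window repeated elsewhere, with 73.7% of the counts on its copies.

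**Figure D4:**
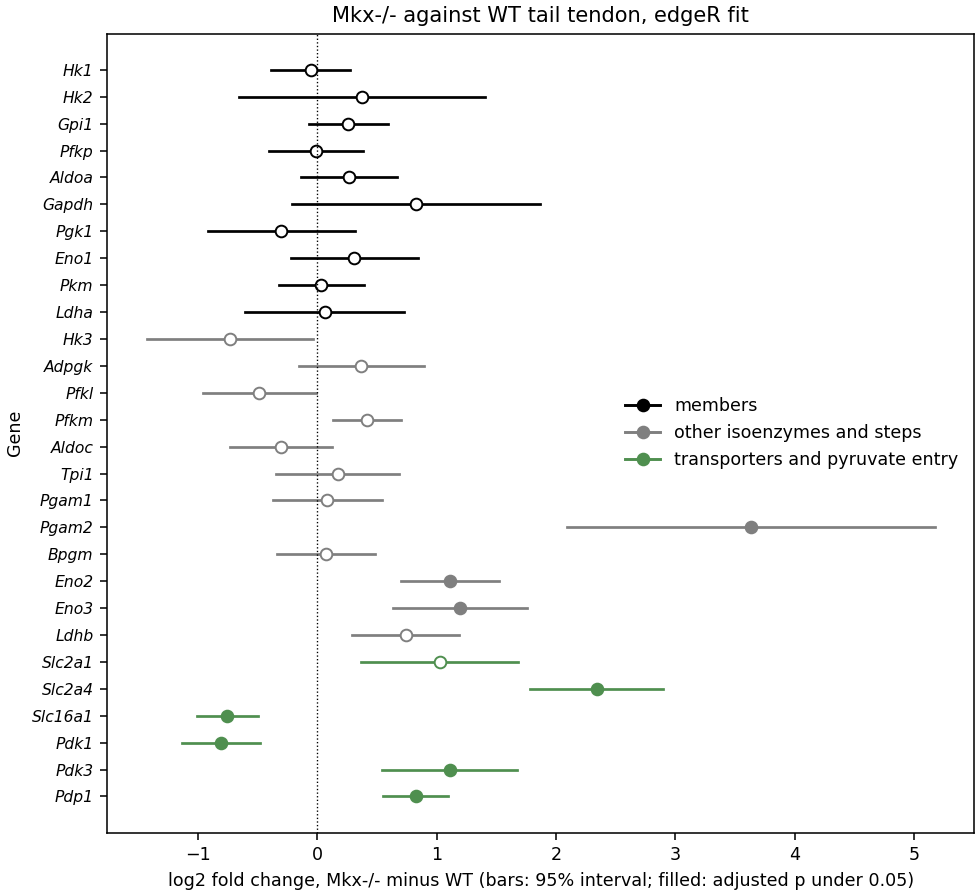
Log2 fold change of *Mkx*-/- over WT tendon (horizontal axis) with 95% intervals for the members (black), other isoenzymes and steps (grey), and transporters and genes of pyruvate entry that passed, with *Slc2a1* (green); filled points have an adjusted p under 0.05. All member points are open and cross 0, and *Pgam2*, *Eno2*, *Eno3*, *Slc2a4*, *Slc16a1*, *Pdk1*, *Pdk3* and *Pdp1* are filled.

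Ratios of isoenzymes within a library, which do not depend on the scaling, were compared with a two-sided exact permutation test, which cannot go below 0.1 for 3 libraries against 3. Of 7 ratios, 3 reached that limit, *Aldoa* to *Aldoc*, *Pfkp* to *Pfkm* and *Pgam1* to *Pgam2* (exact permutation p = 0.1, 0.233 after adjustment over the 7 ratios). *Aldoa* to *Aldoc* was 5.33 ± 0.18 in WT and 5.89 ± 0.30 in *Mkx*-/- libraries on the log2 scale (SD, n = 3). *Pfkp* to *Pfkm* was -0.62 ± 0.24 and -1.02 ± 0.25, and *Pgam1* to *Pgam2* was 3.39 ± 1.54 and -0.23 ± 0.94. Counts on copies are left out of all ratios, and copies held 73.7% of the counts for *Pgam1*, 23.6% for *Ldhb* and 20.1% for *Eno1*. The negative value in *Mkx*-/- libraries therefore cannot be read as more *Pgam2* than *Pgam1* mRNA. *Eno1* to *Eno3* was 1.16 ± 0.53 and 0.37 ± 0.47 on the log2 scale (exact permutation p = 0.2), and *Ldha* to *Ldhb* was 3.80 ± 0.47 and 3.18 ± 0.65 (exact permutation p = 0.2). *Hk1* to *Hk2* was 3.91 ± 1.03 and 3.44 ± 0.81 (exact permutation p = 0.6), and *Pfkp* to *Pfkl* was 0.20 ± 0.54 and 0.68 ± 0.45 (exact permutation p = 0.3).

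Muscle markers moved with some of these genes. The summed markers in the *Mkx*-/- libraries were 3731 CPM in replicate 1, 1823 in replicate 2 and 758 in replicate 3. *Pgam2* followed this order, at 20.9, 7.94 and 4.91 CPM, and *Pfkm* did as well. In WT, *Pfkm* was at 55.1, 57.3 and 49.5 CPM, highest in WT replicate 2, where the markers were lowest. *Eno3* was highest in *Mkx*-/- replicate 1 and even in the other *Mkx*-/- pair. In WT it stayed at 19.0 to 21.1 CPM although the markers ran from 126 to 540 CPM there. *Aldoa*, a member also abundant in muscle, was highest in *Mkx*-/- replicate 1, at 431 CPM. *Eno2* was level at 12.6 to 13.4 CPM over these 3 libraries, and *Slc2a4* was highest in replicate 3, where the muscle markers were lowest of the 3. With the muscle markers removed from the counts before scaling, the members' log2 fold changes differed little from those given, with a median of 0.16, and no member passed. This removes only the marker rows, so it cannot take muscle reads out of the members' own rows. The part of muscle RNA in these levels was not tested. The myelin markers of Schwann cells also summed higher, at 12597 to 23372 CPM in *Mkx*-/- against 8115 to 10730 CPM in WT libraries, although 0 of 7 passed.

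**Figure D5:**
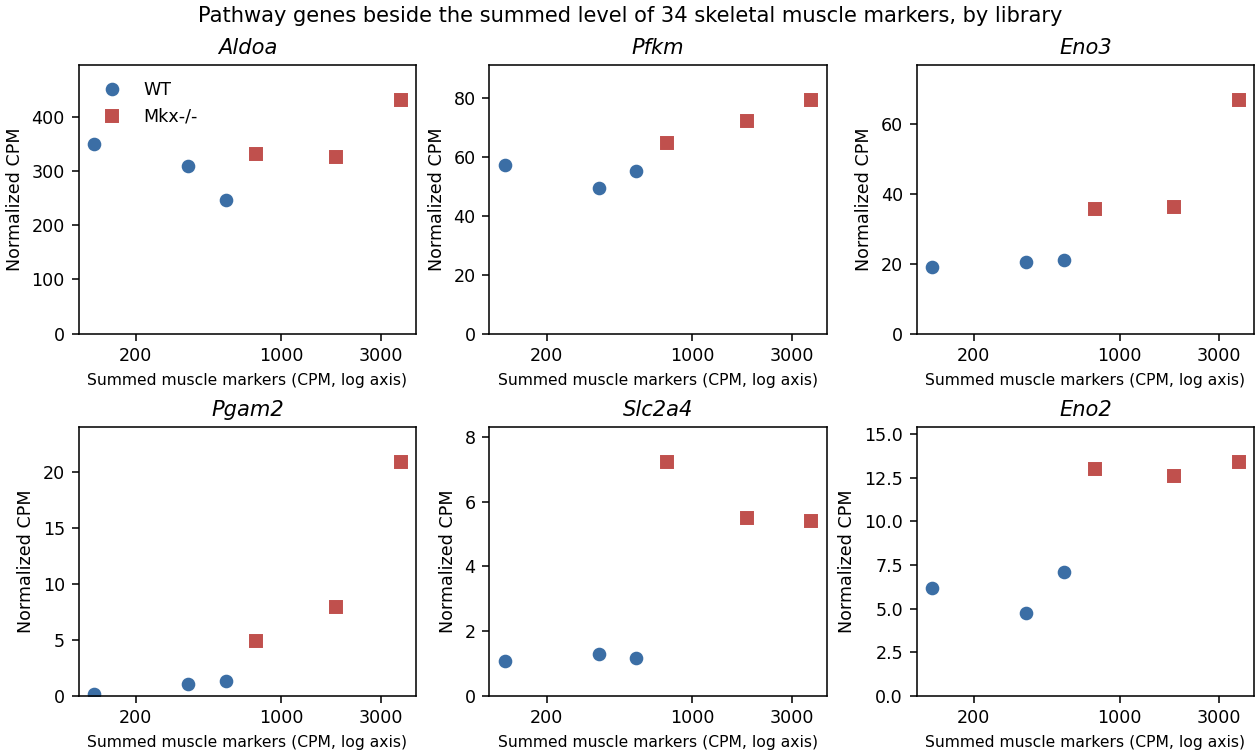
Normalized CPM of *Aldoa*, *Pfkm*, *Eno3*, *Pgam2*, *Slc2a4* and *Eno2* (vertical axes from 0) against the summed CPM of 34 skeletal muscle markers (log axis) in 3 WT (blue circles) and 3 *Mkx*-/- (red squares) libraries. *Pgam2* goes up with the markers among the *Mkx*-/- libraries, while *Eno2* lies at 12.6 to 13.4 CPM in all of them.

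Glucose enters cells through the Slc2a (Glut) carriers and lactate crosses the membrane through the Slc16a (Mct) carriers. Of 10 carrier genes tested, including the Mct chaperone *Bsg*, 1 was higher and 1 lower. *Slc2a4*, which encodes the insulin-responsive carrier Glut4, was at 1.18, 1.08 and 1.28 CPM in WT and at 5.404, 5.48 and 7.21 CPM in *Mkx*-/- libraries, with no overlap (log2 fold change 2.34, SE 0.24, adjusted p = 0.00216, edgeR). *Slc16a1*, which encodes the lactate carrier Mct1, fell from 79.8, 80.0 and 84.2 CPM to 45.7, 46.6 and 52.4 CPM, with log2 fold change -0.75 (SE 0.11, adjusted p = 0.00989, edgeR, 0.0503 without *Mkx*-/- replicate 2 and 0.0645 with library size only). *Slc2a1*, the basal glucose carrier Glut1, was at 9.38, 11.0 and 11.5 CPM in WT and at 12.5, 22.2 and 30.1 CPM in *Mkx*-/- libraries, and did not pass in edgeR (log2 fold change 1.03, adjusted p = 0.0796) but did in DESeq2 (adjusted p = 0.0130). *Slc16a3*, the lactate-exporting Mct4 gene, was at 2.52 to 8.54 CPM in WT and 4.28 to 6.60 CPM in *Mkx*-/- libraries.

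Pyruvate dehydrogenase admits pyruvate to the mitochondrial cycle, the Pdk kinases switch it off and the Pdp phosphatases switch it on. Of 13 genes of pyruvate entry, 2 were higher and 1 lower, and all 3 were regulators of this enzyme. *Pdk1* fell from 43.0, 42.9 and 43.9 CPM to 29.5, 23.0 and 21.7 CPM (log2 fold change -0.81, SE 0.14, adjusted p = 0.0183, edgeR). Leaving out any of WT replicates 2 and 3 and *Mkx*-/- replicates 2 and 3 took its adjusted p to between 0.0675 and 0.0755. *Pdk3*, which is X-linked, rose from 2.36, 4.12 and 3.93 CPM to 7.51, 6.46 and 8.40 CPM (log2 fold change 1.11, SE 0.25, adjusted p = 0.0418, edgeR). Leaving out any library other than WT replicate 1 ended that call, with adjusted p up to 0.134, as did the replicate block (0.0794). *Pdp1* rose from 20.1, 17.8 and 18.1 CPM to 34.9, 33.3 and 30.8 CPM (log2 fold change 0.82, SE 0.12, adjusted p = 0.00892, edgeR), with adjusted p of 0.0523 without WT replicate 2 and 0.0512 without WT replicate 3. The subunits *Pdha1*, *Pdhb*, *Dlat* and *Dld* and the pyruvate carrier genes *Mpc1* and *Mpc2* did not pass.

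The remaining lists stayed below the threshold almost throughout. None of 5 genes controlling fructose-2,6-bisphosphate, the activator of phosphofructokinase, passed (edgeR, 2 at an unadjusted p under 0.05, and 0 by DESeq2). None of 4 tested gluconeogenesis genes passed (2 at an unadjusted p under 0.05, and 0 by DESeq2). None of 14 branch genes, from the pentose phosphate to the serine pathway, passed by edgeR (4 at an unadjusted p under 0.05), and 1 did by DESeq2, *Gpd1*, the cytosolic glycerol-3-phosphate dehydrogenase, named after its values were seen, at 8.19, 11.9 and 15.5 CPM in WT and at 18.04, 21.3 and 27.3 CPM in *Mkx*-/- libraries. None of 17 TCA cycle genes passed (2 at an unadjusted p under 0.05, and 0 by DESeq2), with a median log2 fold change of 0.07. Of 19 genes of hypoxia sensing and HIF targets outside glycolysis, *Ddit4*, an inhibitor of mTORC1 signalling, was lower, at 333, 224 and 153 CPM in WT and 81.3, 92.6 and 48.3 CPM in *Mkx*-/- libraries (log2 fold change -1.68, SE 0.32, adjusted p = 0.0247, edgeR). Its adjusted p was 0.0814 without WT replicate 2, 0.0571 without *Mkx*-/- replicate 1 and 0.0667 without *Mkx*-/- replicate 3. DESeq2 passed 3 genes of this list, *Ddit4* and, higher in *Mkx*-/- tendons, *Adm* and *Ndrg1* (adjusted p = 0.00624 and 0.0081 by DESeq2, and 0.0749 and 0.0755 by edgeR). Of 15 genes in common use as qPCR references, among them *Gapdh* and *Pgk1*, *B2m*, the light chain of MHC class I, rose by 0.85 on the log2 scale (SE 0.12, adjusted p = 0.00652, edgeR), and 14 did not pass.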

How the data were processed

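Bulk RNA-seq of mouse tail tendon was taken as the raw counts, whole numbers per gene symbol, that the authors deposited after trimming, quality filtering and alignment to mm9 with MapSplice. The counter, its annotation, and its use of strand are not given in the sources used here. Exons of *Hk1*, *Gpi1* and *Pfkp* overlap opposite-strand genes by 157, 741 and 372 bases. Depth was 10835070 to 14160301 counts per library, and 0 columns were unused.

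Groups came from the sample labels. Counts were fitted on genotype with edgeR 4.0.16 in R 4.3.3 (TMM, filterByExpr, quasi-likelihood, robust = FALSE, prior count 0.125, Benjamini-Hochberg), a gene passing at an adjusted p under 0.05. DESeq2 1.42.0 was an alternative, among 16 alternatives listed and 1 added (counts of copies) after the data were seen. The fit was tested on simulated data. Ratios used counts plus 0.5 and scipy 1.17.1. Exact copies of coding windows of 50 and 100 bases were sought in mm9 with GENCODE coordinates, from seeds of 32 bases. Promoters are RefSeq, GRCm38.p6.

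The members and lists were chosen with earlier results of these data known. Of every list outside the members, genes passing the threshold (at most 6) and isoenzymes of a ratio are named; others, such as *Slc2a1*, *Slc16a3*, *Tpi1*, *Hif1a*, *Bnip3* and *Pfkfb3*, were named after their values were seen.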

Additional observations from a re-analysis of the deposited data

How the results depend on the processing

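The count of members passing stayed at 0 in both directions under every alternative run, except that 1 member, *Aldoa*, was higher when libraries were scaled by size alone. That scaling put the log2 ratio of the summed members at 0.39, with all genes shifted as the report states. Over all genes tested, 463 were higher and 329 lower in *Mkx*-/- tendons, 1358 and 197 with library size only, 787 and 588 with DESeq2, and 970 and 594 with at least 1 count in any library. With the replicate block the counts were 264 and 170. Same-numbered libraries deviated together by correlations of 0.026, -0.21 and 0.30, and differently numbered ones by -0.39 to 0.40. These few values can neither show nor exclude a pairing of the libraries by number. Leaving out each library gave 117 to 539 higher and 127 to 439 lower genes. Of the other pathway genes, 6 were higher and 3 lower, 14 higher with library size only and 11 higher with DESeq2 and with at least 1 count in any library, and 1 to 8 higher and 1 to 4 lower without each library. Small differences changed sign. *Hk1* was 0.20 with library size only and -0.19 to 0.021 without each library. *Pfkp* was 0.24 with library size only, 0.0023 with at least 1 count in any library, 0.0057 with the replicate block and -0.16 to 0.16 without each library. Without each library *Pkm* ran from -0.085 to 0.12, *Ldha* from -0.20 to 0.26, *Pgam1* from -0.083 to 0.18 and the *Hk1* to *Hk2* ratio from -0.93 to 0.095. The causes were not tested. *Gapdh* rests on few counts, 5 to 28 a library.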
